A study of Mus musculus with 33 samples.

Results

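Protocadherins are cell surface proteins of the cadherin superfamily, and their genes are analysed here as every gene whose mouse symbol starts with Pcdh in an RNA-seq table of differentiating P19 cells. Of 70 such gene IDs in the name table, 33 are among the 14717 genes of the deposited table. They are 1 entry of the alpha cluster (Pcdha11), 21 genes of the beta cluster (Pcdhb2 to Pcdhb22) and 1 entry of the gamma cluster (Pcdhgc4). The last 10 are non-clustered genes (Pcdh1, Pcdh7, Pcdh8, Pcdh9, Pcdh10, Pcdh11x, Pcdh15, Pcdh17, Pcdh18 and Pcdh19). Of the other 37 IDs, Pcdh12, Pcdh20 and Pcdhb1 are not in the table, nor are 34 IDs of the alpha and gamma clusters. Every gene of the table reaches 1 CPM (counts divided by the scaled library size in M) in at least 3 libraries, so a member could be listed through the group where it was high. Counts over the 33 listed members are therefore a description of those genes, set beside the same counts over the whole table.

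P19 is a mouse embryonal carcinoma cell line, grown from a tumour of embryo-like cells, that can be steered to different lineages. RNA was sequenced in 15 libraries, 3 for each of 5 groups. D0 holds undifferentiated P19. D3RA and D6RA hold cells given 1 µM all-trans retinoic acid (RA), a route of this line to neurons, and collected on day 3 or day 6. D3DMSO and D6DMSO hold cells given 1% dimethyl sulfoxide (DMSO) instead, a route to mesoderm and heart muscle, and collected on those days. All 4 differentiated groups were aggregated as embryoid bodies for 2 days before plating in flasks, so a comparison with D0 holds the aggregation as well as the agent, and RA against DMSO compares a pair of agents. The series' design text calls the samples biological replicates without naming separate cultures. All p-values therefore rest on the spread among these 3 samples a group, and that spread may be technical.

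Non-clustered protocadherins are encoded by separate genes. The delta-1 genes (Pcdh1, Pcdh7, Pcdh9, Pcdh11x) and delta-2 genes (Pcdh8, Pcdh10, Pcdh17, Pcdh18, Pcdh19) mediate weak, like-to-like adhesion and signal to the actin cytoskeleton, and many are used in subsets of developing neurons. The clustered alpha, beta and gamma genes lie side by side on chromosome 18. Alpha and gamma variable exons each have their own promoter and are spliced to shared constant exons, while each beta gene is a single coding exon. Neurons choose combinations of these promoters, and the resulting proteins give a neuron a surface identity used in self-avoidance of its branches.

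Depth differed by day: libraries held 7.13 to 9.88 M counts for D0, 3.55 to 9.82 M for D3RA, 5.86 to 6.87 M for D3DMSO, 38.2 to 49.6 M for D6RA and 39 to 44.5 M for D6DMSO. Counts of 11 mitochondrial genes were 0 in the D0 and D3 libraries and 41.6 to 55.8% of the total in the D6 libraries, so depth and the handling of these reads go with the day and cannot be told apart from it. Within day 6 their share was 41.6 to 42.6% in D6RA and 49.8 to 55.8% in D6DMSO. All 8 neuron markers listed (Tubb3, Dcx, Elavl3, Elavl4, Map2, Stmn2, Snap25 and Nefl) were higher in D6RA than in D6DMSO, with summed levels of 3346 to 3579 CPM in D6RA and 35.7 to 42.1 CPM in D6DMSO, and 7 of 8 were higher in D3RA than in D3DMSO, at 965 to 1205 CPM in D3RA and 160 to 215 CPM in D3DMSO. Their sum in D0 was 350 to 387 CPM, and no neuron marker was at 0 in any group. All 5 heart muscle markers listed were lower in D6RA than in D6DMSO (0.662 to 0.738 CPM summed in D6RA and 92.0 to 128 CPM in D6DMSO), and of these Tnnt2 was at 0 in D3RA. Mesenchyme and smooth muscle markers summed to 15.3 to 19 CPM in D6RA and 530 to 657 CPM in D6DMSO (0 of 5 higher, 5 lower). Neural progenitor markers were all higher with RA (5 of 5 at each day), at 740 to 757 CPM in D6RA and 136 to 154 CPM in D6DMSO. At day 3, pluripotency markers summed to 139 to 166 CPM in D3RA and 614 to 1170 CPM in D3DMSO (1 of 7 higher, 5 lower, with Fgf4 at 0 in D3RA), beside 1861 to 2142 CPM in D0. Among them, Pou5f1 averaged 1.79 ± 2.04 CPM over the D3RA libraries and 555 ± 247 CPM over those of D3DMSO. Sox2, the 1 called higher, made up most of the D3RA sum, at 147 ± 12.1 CPM there and 67.4 ± 11.1 CPM in D3DMSO. Primitive streak and mesoderm markers summed to 55.7 to 81.8 CPM in D3RA and 1178 to 1306 CPM in D3DMSO (0 of 5 higher, 4 lower). Kdr made up most of that D3RA sum, at 66.4 ± 12.4 CPM. Endothelial and blood markers summed to 87.9 to 125 CPM in D3RA and 7.59 to 10.1 CPM in D3DMSO (4 of 5 higher, 1 lower), with Emcn at 0 in D3DMSO. Endoderm and glia or neural crest lists each rested on 2 measured genes. The labels name no cell type for a group, and the part of these marker changes in the protocadherin results was not tested. In bulk RNA, fewer cells of a type and less RNA per cell cannot be told apart.

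The 33 protocadherin genes together stood highest in D6RA. Their summed level was 187 ± 16.3 CPM in D0, 530.0 ± 20.9 CPM in D3RA, 448 ± 96.8 CPM in D3DMSO, 1337 ± 15 CPM in D6RA and 541 ± 10.8 CPM in D6DMSO (mean ± SD, n = 3). The beta genes made up most of the difference at day 6. All 21 beta genes and the Pcdha11 entry had their highest group mean in D6RA, and 19 of the 21 beta genes had their lowest in D0. The non-clustered genes were less uniform, with 6 of 10 highest in D6RA (Pcdh7, Pcdh8, Pcdh9, Pcdh10, Pcdh15 and Pcdh18), Pcdh1 highest in D0, Pcdh17 in D3RA, Pcdh19 in D3DMSO and Pcdh11x in D6DMSO. Pcdhgc4 was highest in D6DMSO.

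Genes were compared with limma on the deposited log2 values of the whole table, and a gene was called at a Benjamini-Hochberg adjusted p under 0.05 over all 14717 genes. Fold changes are given ± SE, on the scale of a count plus 0.5 that is then scaled for library size. This mostly understates changes of low genes. The 0.5 weighs more in the smaller D0 and D3 libraries, so low genes compare less evenly between days. In D3RA with D3DMSO, 25 of the 33 listed members were higher and 3 were lower, where 30.7% of all genes were called higher and 31.4% lower. In D6RA with D6DMSO, 28 were higher and 1 lower, beside 32.6% and 33.1% of all genes. The shares of members called higher stood well above the shares over the table, and the shares called lower stood below them. The median member log2 fold change was 1.54 at day 3 and 2.54 at day 6, where the medians over all genes were -0.01 and -0.02.

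Set against undifferentiated cells, 30 members were higher and 1 lower in D3RA (35% of all genes higher, 33.9% lower), and 20 were higher and 1 lower in D3DMSO (28.2% and 27.8%). These comparisons share the D0 libraries. The member called lower was Pcdh1 in each. Between the days, 29 members were higher and 0 lower in D6RA than in D3RA (37.2% and 32% of all genes), with no member lower at an unadjusted p under 0.05 in limma or at the adjusted threshold under voom weights. In D6DMSO with D3DMSO, 12 were higher and 4 lower (28.3% and 28.1% of all genes), so there the share of members called higher was near that of the table. The median member log2 fold change was 2.67 for D3RA with D0, 0.84 for D3DMSO with D0, 1.72 for D6RA with D3RA and 0.36 for D6DMSO with D3DMSO, with medians over all genes between 0.01 and 0.07.

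The beta genes were higher with RA together, at both days. Summed over its 21 genes, the level was 755, 711 and 728 CPM in the D6RA libraries, against 123, 113 and 116 CPM in the D6DMSO libraries. At day 3 it was 234, 257 and 239 CPM in D3RA, against 58.8, 87.4 and 82.4 CPM in D3DMSO, and in D0 it was 40.4, 42.3 and 40.6 CPM. The groups did not overlap at either day, and every D3 library of either agent stood above the D0 libraries. The genes of this cluster are close copies of each other, and how reads shared by several genes were counted is not given in the sources used here, so the split of reads between genes of the cluster is uncertain.

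**Figure D1:**
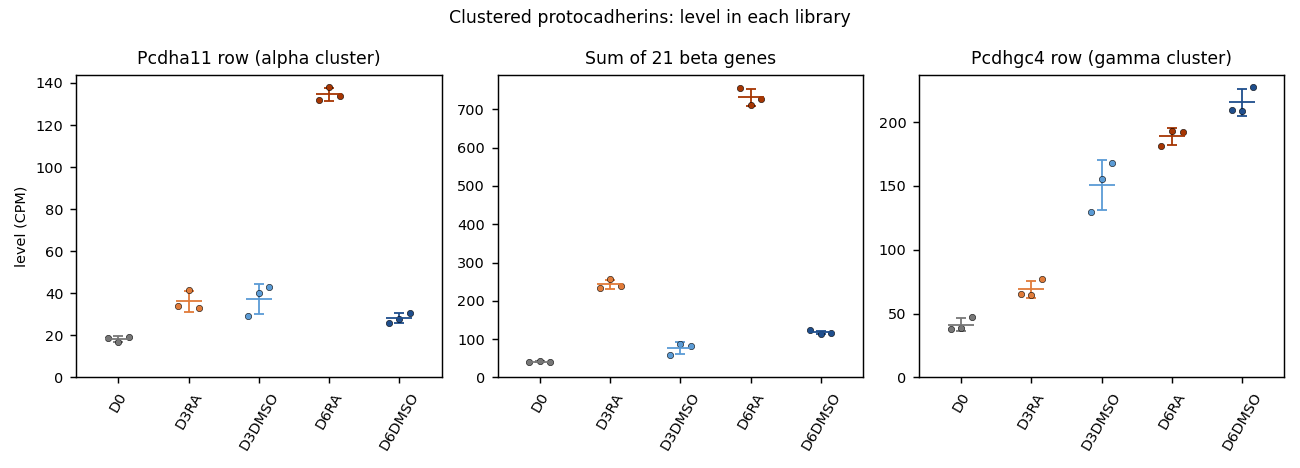
Level in CPM (vertical axis, linear, from 0) of the Pcdha11 entry, of the sum of the 21 beta genes and of the Pcdhgc4 entry in each of the 15 libraries by group (horizontal axis), with points for libraries and bars for the mean ± SD of 3. The beta sum and Pcdha11 stand apart from all other groups in D6RA, while Pcdhgc4 is higher in D3DMSO than in D3RA and lies near 200 CPM in both day 6 groups.

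At day 3, 20 of the 21 beta genes were higher in D3RA than in D3DMSO and none was lower (0 also at an unadjusted p under 0.05 and under voom weights), with log2 fold changes over the 21 genes from 0.32 to 3.61. In the whole table, 30.7% of genes were called higher and 31.4% lower. Pcdhb11 had 46.7, 54.1 and 41.6 CPM in D3RA, against 6.77, 10.7 and 10.2 CPM in D3DMSO (log2 fold change 2.38 ± 0.16, adjusted p = 1.89e-09). Pcdhb16 had 29.4, 32.2 and 30.1 CPM in D3RA, against 4.56, 9.44 and 10.4 CPM in D3DMSO (log2 fold change 1.99 ± 0.29, adjusted p = 1.41e-05). Every D3RA library lay above every D3DMSO library for both genes. Pcdhb10 had 4.01, 3.26 and 4.11 CPM in D3RA, against 0.138, 0.205 and 0.465 CPM in D3DMSO (log2 fold change 3.59 ± 0.54, adjusted p = 2.14e-05). Pcdhb13 was nearly silent in D3DMSO, with 2 counts over the 3 libraries, against 30 counts in D3RA. The ratio of its summed counts, scaled for library size, was 17.2 (95% counting interval 4.35 to 148). Among the smallest changes called was that of Pcdhb8, at 4.01, 2.61 and 3.20 CPM in D3RA against 1.93, 2.46 and 2.01 CPM in D3DMSO (log2 fold change 0.61 ± 0.23, adjusted p = 0.0279). Pcdhb8 was no longer called without D3RA replicate 1 or without D3DMSO replicate 1 or 3. It was also not called with the compared groups alone (adjusted p = 0.141) or with libraries thinned to the smallest (0.368). Pcdhb4 did not pass the test, with 2.0, 0.977 and 0.914 CPM in D3RA and 1.10, 0.616 and 1.55 CPM in D3DMSO.

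At day 6, all 21 beta genes were higher in D6RA than in D6DMSO, with log2 fold changes from 1.15 to 6.06, and the libraries of the groups did not overlap for any of them. Over the whole table, 32.6% of genes were called higher and 39.8% had every D6RA library above every D6DMSO library. Pcdhb10 had the largest fold change, at 28.4, 28.4 and 29.2 CPM in D6RA against 0.439, 0.252 and 0.613 CPM in D6DMSO (log2 fold change 6.06 ± 0.54, adjusted p = 3.17e-08). Pcdhb6 followed, at 42.6, 37.0 and 39 CPM in D6RA against 1.27, 1.22 and 1.14 CPM in D6DMSO (log2 fold change 5.01 ± 0.23, adjusted p = 8.47e-12). The D6DMSO libraries of Pcdhb6 lay inside its D0 range, which was 0.821 to 1.42 CPM. Pcdhb11 had 97.9, 90.5 and 93.9 CPM in D6RA, against 6.45, 6.76 and 6.08 CPM in D6DMSO (log2 fold change 3.87 ± 0.16, adjusted p = 2.22e-12), and Pcdhb16 had 90.1, 81.3 and 88.2 CPM in D6RA, against 15.9, 17.2 and 12.7 CPM in D6DMSO (log2 fold change 2.51 ± 0.29, adjusted p = 7.14e-07). Every D6RA library of both genes lay far above every D6DMSO library. The smallest changes were those of Pcdhb22 and Pcdhb18. Their D6DMSO means were above their D0 means, which held for every beta gene except Pcdhb4. Pcdhb16, with a larger change, averaged 15.3 ± 2.30 CPM in D6DMSO and 2.50 ± 1.09 CPM in D0. Pcdhb22 had 56.2, 53.0 and 54.2 CPM in D6RA, against 24.6, 22.6 and 26.3 CPM in D6DMSO (log2 fold change 1.15 ± 0.12, adjusted p = 2.92e-07), and Pcdhb18 had 37.9, 35.3 and 34.6 CPM in D6RA, against 14.2, 13.0 and 15 CPM in D6DMSO (log2 fold change 1.35 ± 0.15, adjusted p = 5.74e-07). In D0, Pcdhb22 was at 12.9, 12.1 and 11.7 CPM and Pcdhb18 at 4.0, 3.46 and 4.16 CPM.

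**Figure D2:**
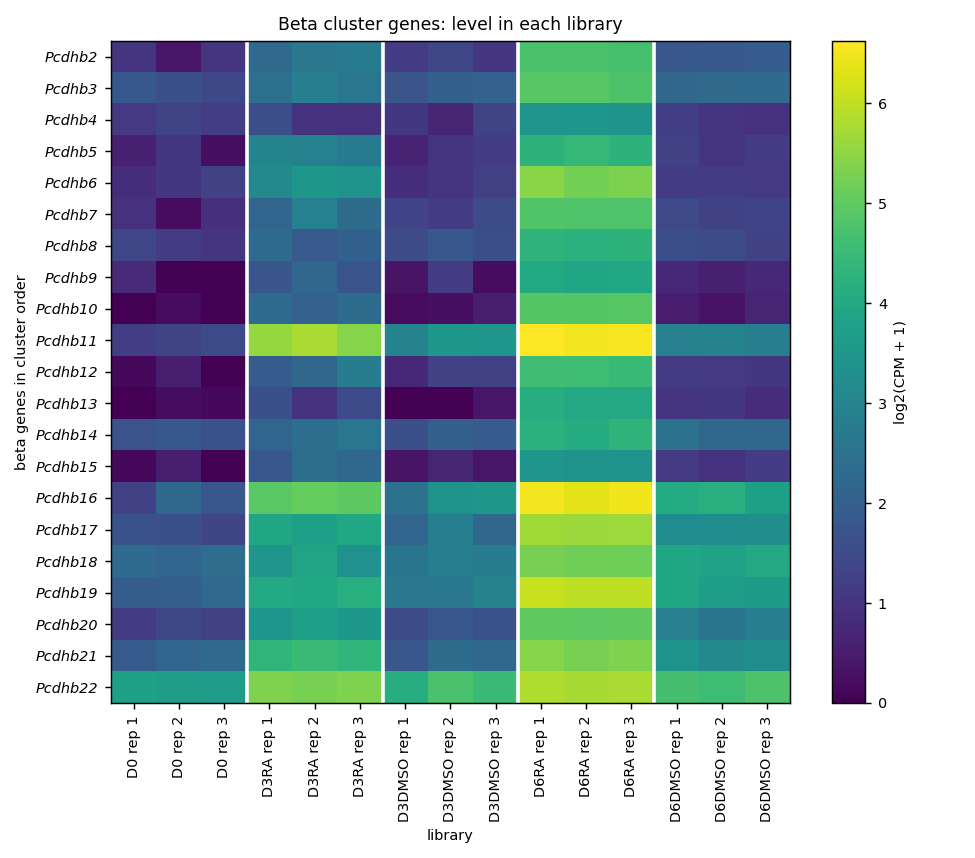
Level of each beta gene (rows, in the order of the cluster) in each of the 15 libraries (columns, by group), as log2(CPM + 1) on the colour scale. The D6RA columns are the brightest in every row, and the D3RA columns come next in most rows. Pcdhb10 is near 0 outside the RA groups, and Pcdhb13 is near 0 in D0 and D3DMSO.

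The size of the day 6 difference went with position in the cluster. From Pcdhb2 to Pcdhb22, the Spearman correlation across the 21 genes between cluster order and log2 fold change was -0.65 for D6RA with D6DMSO, with a median of 3.91 over the first 10 genes and 2.39 over the last 10. For D3RA with D3DMSO the correlation was 0.01, with medians of 2.10 and 1.84. Levels in D6DMSO also moved along the cluster. Of the 9 beta genes that were higher in D6DMSO than in D3DMSO, 8 lay between Pcdhb13 and Pcdhb21, and the other was Pcdhb2. The median log2 fold change of D6DMSO with D3DMSO was 0.23 over the first 10 genes and 1.19 over the last 10 (correlation 0.55). All genes come from the same libraries and neighbours share sequence, so these correlations are descriptions of 21 dependent points.

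**Figure D3:**
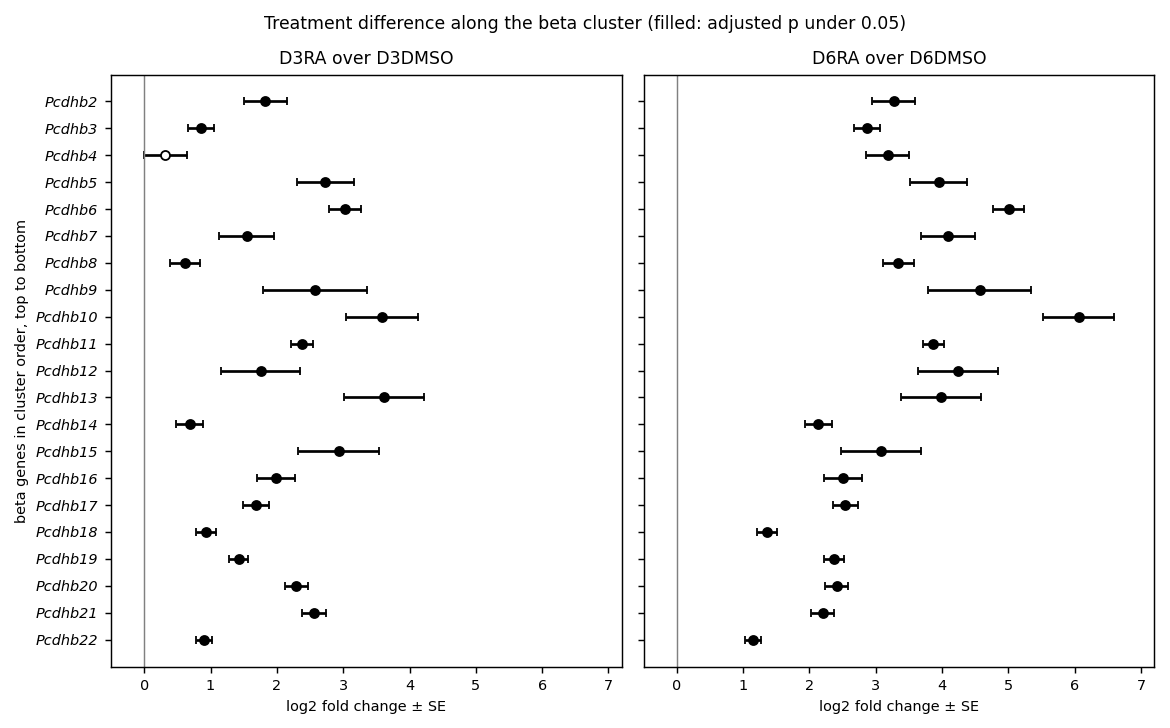
Log2 fold change ± SE (horizontal axis) of each beta gene in cluster order (vertical axis, top to bottom) for D3RA over D3DMSO (left) and D6RA over D6DMSO (right), with filled points for genes called. All 21 genes lie right of 0 at day 6, where the last genes down to Pcdhb22 (1.15) sit closest to it, and Pcdhb4 is the open point at day 3.

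The make-up of the beta cluster's RNA shifted with treatment. Pcdhb22 gave 29.8 ± 1.86% of the summed beta CPM in D0, 16.1 ± 1.17% in D3RA, 27.8 ± 1.30% in D3DMSO, 7.45 ± 0.00334% in D6RA and 20.9 ± 1.45% in D6DMSO (mean ± SD, n = 3). Its share was lowest in D6RA although its level was highest there, while every other beta gene had a larger fold change of D6RA with D6DMSO. Its D6RA libraries held 1699, 1293 and 1732 counts. The SD of 0.00334% there is below counting error, so it overstates the precision of that share. Pcdhb11 gave 3.82 ± 0.571% in D0, 19.5 ± 1.87% in D3RA, 12 ± 0.475% in D3DMSO, 12.9 ± 0.12% in D6RA and 5.49 ± 0.426% in D6DMSO. Counts behind these shares were 269 to 429 beta counts per library in D0, 523 to 2574 in D3RA, 426 to 532 in D3DMSO, 17346 to 23251 in D6RA and 2659 to 2798 in D6DMSO.

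Beta genes had also changed from the undifferentiated state by day 3. In D3RA, 20 of 21 beta genes were higher than in D0, all but Pcdhb4 (35% of all genes were called higher). Their median log2 fold change was 2.88 over the 21. In D3DMSO, 13 of 21 were higher than in D0 (28.2% of all genes), with a median of 0.84. Under voom weights 8 of 21 were called higher, beside 4044 of all 14717 genes. Pcdhb11 had 1.33, 1.57 and 1.80 CPM in D0, so both agents exceeded it (D3RA log2 fold change 4.87 ± 0.16, adjusted p = 2.78e-13, and D3DMSO log2 fold change 2.5 ± 0.16, adjusted p = 2.36e-09). Pcdhb10 had 1 count over the 3 D0 libraries, against 63 in D3RA, a scaled ratio of 104 (95% counting interval 17.9 to 4153). From day 3 to day 6 all 21 beta genes were higher in D6RA than in D3RA (37.2% of all genes). Their log2 fold changes were 0.48 (Pcdhb22) to 3.17 (Pcdhb13). In D6DMSO with D3DMSO, 9 beta genes were higher and 1 lower (28.3% and 28.1% of all genes). The lower was Pcdhb11, at 6.45, 6.76 and 6.08 CPM in D6DMSO against 6.77, 10.7 and 10.2 CPM in D3DMSO (log2 fold change -0.50 ± 0.16, adjusted p = 0.0153). That call was lost without D3DMSO replicate 2 or 3 or without D6DMSO replicate 3.

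The alpha and gamma clusters are each seen through a single table entry. The 34 alpha and gamma IDs that are not in the table all carry higher ID numbers than any gene in it, so the Pcdha11 and Pcdhgc4 entries may hold reads of other genes of their clusters, which was not tested. Among those 34 is another ID with the symbol Pcdha11. Pcdha11 (ENSMUSG00000007440) had 132, 138 and 134 CPM in D6RA, against 25.9, 28.0 and 30.7 CPM in D6DMSO (log2 fold change 2.26 ± 0.13, adjusted p = 7.92e-11). At day 3 it had 33.8, 41.7 and 32.9 CPM in D3RA and 29.4, 40.2 and 42.8 CPM in D3DMSO, which overlapped and did not pass the test (adjusted p = 0.802). Both day 3 groups stood above D0, at 18.6, 16.7 and 19.3 CPM (D3RA log2 fold change 0.99 ± 0.13, adjusted p = 2.69e-06, and D3DMSO log2 fold change 1.03 ± 0.13, adjusted p = 3.31e-06). The alpha entry was thus higher with either agent at day 3 and differed between agents at day 6, where the RA minus DMSO difference exceeded that of day 3 by 2.30 ± 0.18 (adjusted p = 2.21e-08).

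The Pcdhgc4 entry (ENSMUSG00000023036) went the other way at day 3. Mouse work links the C-type gamma gene of that name to survival of neurons. The entry had 65.7, 64.5 and 76.7 CPM in D3RA, against 129.5, 156 and 168 CPM in D3DMSO (log2 fold change -1.12 ± 0.10, adjusted p = 5.81e-08). Both stood above D0, at 37.8, 38.8 and 47.2 CPM. The D3RA libraries lay below all D3DMSO libraries. At day 6 it had 181, 193 and 192 CPM in D6RA and 209.8, 209 and 228 CPM in D6DMSO, which did not overlap but did not pass the test (log2 fold change -0.19, adjusted p = 0.108). It was called lower in D6RA under quantile normalization, under voom weights, with the replicate block and in a fit of the day 6 groups alone.

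Among the delta-1 genes, Pcdh9, which is used in cortical and hindbrain circuits, was nearly absent outside the RA groups. It had 37.8, 33.9 and 35.2 CPM in D6RA, against 0.526, 0.546 and 0.875 CPM in D6DMSO (log2 fold change 5.77 ± 0.34, adjusted p = 1.68e-10). At day 3 it had 2.91, 6.51 and 5.48 CPM in D3RA, against 0.69, 0.821 and 1.08 CPM in D3DMSO (log2 fold change 2.37 ± 0.34, adjusted p = 1.36e-05). In D0 it had 1.13, 0.472 and 0.851 CPM, so both DMSO groups lay within the D0 range, and the RA libraries of each day lay above it.

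Pcdh11x, an X-linked gene best known from the brain, was the 1 member called lower in D6RA with D6DMSO. It had 16.3, 12.9 and 13.7 CPM in D6RA, against 40.4, 50.2 and 44.6 CPM in D6DMSO (log2 fold change -1.66 ± 0.28, adjusted p = 4.93e-05). It was higher at day 3 with either agent, at 4.46, 4.56 and 5.48 CPM in D3RA and 3.87, 5.54 and 5.11 CPM in D3DMSO, against 0.308, 0.786 and 0.851 CPM in D0 (D3RA log2 fold change 2.92 ± 0.28, adjusted p = 7.21e-08, and D3DMSO log2 fold change 2.90 ± 0.28, adjusted p = 1.91e-07). The day 3 groups overlapped and their difference did not pass the test (adjusted p = 0.943). From day 3 to day 6 it was higher with both agents, by log2 fold changes of 1.52 ± 0.28 in D6RA over D3RA and 3.21 ± 0.28 in D6DMSO over D3DMSO (adjusted p = 0.000116 and 7.12e-08).

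Pcdh1, known from epithelial adhesion, was the member that fell on leaving the undifferentiated state. It had 5.65, 3.26 and 5.94 CPM in D3RA and 8.56, 7.80 and 12.4 CPM in D3DMSO, against 31.2, 29.6 and 47.0 CPM in D0 (D3RA log2 fold change -2.83 ± 0.23, adjusted p = 1.24e-08, and D3DMSO log2 fold change -1.89 ± 0.23, adjusted p = 3.14e-06). No D3 library reached the D0 range. It was lower in D3RA than in D3DMSO (log2 fold change -0.94 ± 0.23, adjusted p = 0.002). At day 6 it had 13.4, 13.0 and 13.4 CPM in D6RA and 7.63, 10.4 and 10.2 CPM in D6DMSO, without overlap and short of the threshold (log2 fold change 0.51, adjusted p = 0.0634). Under voom weights that adjusted p was 0.00633.

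Pcdh7, which in frogs acts in the neural folds and in retinal axons, was lower in D3RA, at 28.1, 25.1 and 30.6 CPM, against 37.0, 52.8 and 41.4 CPM in D3DMSO (log2 fold change -0.63 ± 0.18, adjusted p = 0.0053). D0 was lower than both, at 18.6, 9.75 and 11.4 CPM. At day 6 RA with DMSO did not pass the test, with 43.9, 42.9 and 44.7 CPM in D6RA and 40.2, 44.2 and 40.2 CPM in D6DMSO (adjusted p = 0.712). The groups overlapped there.

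**Figure D4:**
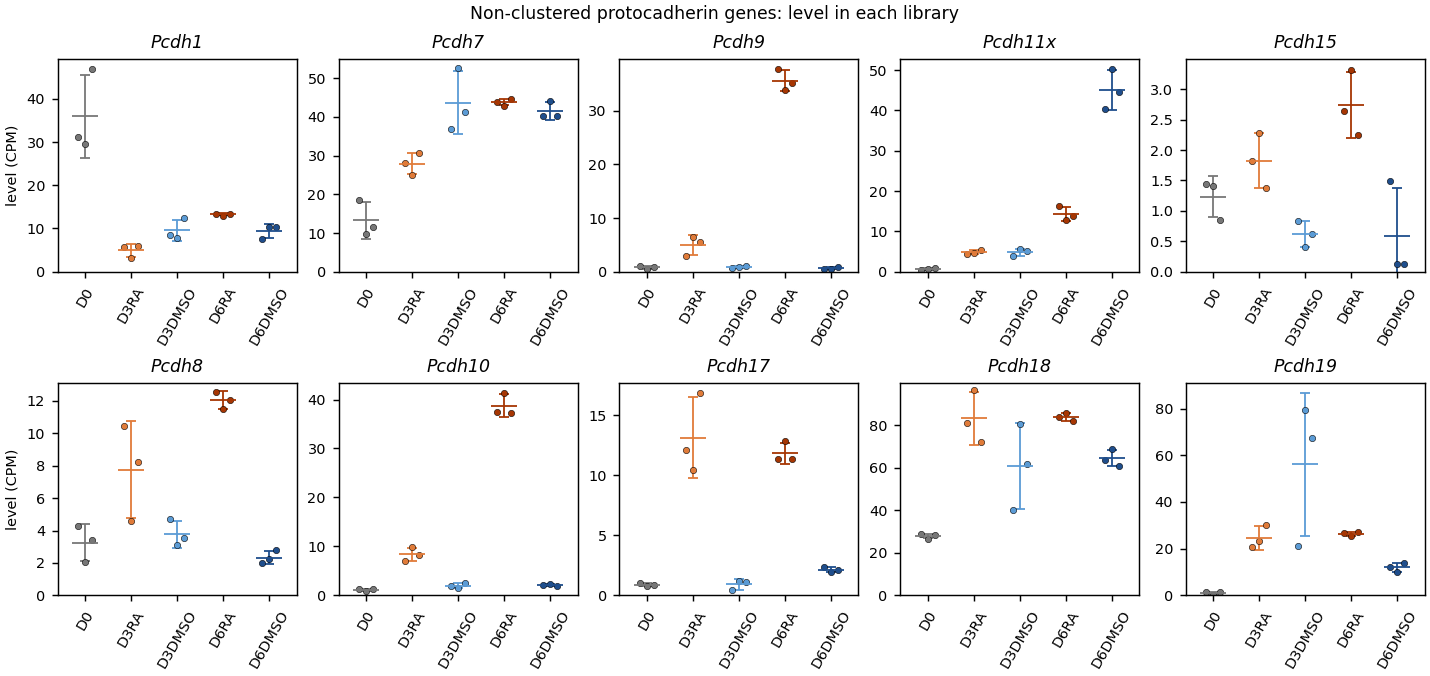
Level in CPM (vertical axes, linear, from 0, each on its own scale) of the 10 non-clustered genes in each of the 15 libraries by group (horizontal axis), with points for libraries and bars for the mean ± SD of 3. Pcdh9 and Pcdh10 peak in D6RA, Pcdh17 is high in both RA groups, Pcdh11x peaks in D6DMSO, Pcdh1 in D0, and Pcdh19 is high and scattered in D3DMSO.

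Among the delta-2 genes, Pcdh10 and Pcdh17, which bind the WAVE actin regulators and act in the extension of axons, were higher with RA at both days. Pcdh10 had 37.4, 41.4 and 37.3 CPM in D6RA, against 2.06, 2.27 and 1.84 CPM in D6DMSO (log2 fold change 4.22 ± 0.21, adjusted p = 2.1e-11). At day 3 it had 7.10, 9.77 and 8.22 CPM in D3RA, against 1.93, 1.44 and 2.48 CPM in D3DMSO (log2 fold change 2.08 ± 0.21, adjusted p = 2.66e-07), and in D0 it had 1.33, 0.944 and 1.23 CPM. The RA libraries of each day lay above all DMSO and D0 libraries, and those of day 6 lay above those of day 3 (log2 fold change 2.2 ± 0.21, adjusted p = 1.31e-07). Pcdh17 was already high at day 3, with 12.1, 10.4 and 16.9 CPM in D3RA, against 0.414, 1.23 and 1.08 CPM in D3DMSO (log2 fold change 3.84 ± 0.31, adjusted p = 1.65e-08). At day 6 it had 11.3, 12.9 and 11.4 CPM in D6RA, against 2.32, 1.93 and 2.14 CPM in D6DMSO (log2 fold change 2.46 ± 0.31, adjusted p = 2.48e-06), and D6RA did not pass the test against D3RA (adjusted p = 0.715). D0 was at 1.03, 0.786 and 0.851 CPM.

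Pcdh8, which acts as paraxial protocadherin in frog gastrulation and at synapses in rat, was also higher with RA. It had 12.6, 11.5 and 12.1 CPM in D6RA, against 1.97, 2.23 and 2.80 CPM in D6DMSO (log2 fold change 2.37 ± 0.29, adjusted p = 1.83e-06), and no libraries overlapped. At day 3 it had 10.5, 4.56 and 8.22 CPM in D3RA, against 4.69, 3.08 and 3.56 CPM in D3DMSO (log2 fold change 0.98 ± 0.29, adjusted p = 0.00839). D3RA replicate 2 lay within the D3DMSO range, and the day 3 call was lost without D3RA replicate 1 (adjusted p = 0.0526). With libraries thinned to the smallest that call was lost too (adjusted p = 0.108).

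Pcdh18, which binds the adaptor Dab1, was already at 28.8, 26.6 and 28.2 CPM in D0 and was higher with either agent at day 3 (D3RA log2 fold change 1.57 ± 0.17, adjusted p = 3.97e-07, and D3DMSO log2 fold change 1.06 ± 0.17, adjusted p = 5.33e-05). It had 80.8, 96.4 and 72.2 CPM in D3RA and 39.9, 80.3 and 61.7 CPM in D3DMSO (log2 fold change 0.50 ± 0.17, adjusted p = 0.0165). These groups overlapped, and the call was lost without D3DMSO replicate 1 (adjusted p = 0.0981) or D3RA replicate 2 (adjusted p = 0.0818). A fit of the day 3 groups alone also lost the call (adjusted p = 0.067). At day 6 it had 83.6, 85.8 and 82.1 CPM in D6RA and 63.7, 68.6 and 61.0 CPM in D6DMSO, which did not overlap and did not pass the test (log2 fold change 0.38, adjusted p = 0.0582). It was called higher in D6RA under voom weights (adjusted p = 0.00803), in a fit of the day 6 groups alone (0.000107), with the replicate block (0.0368), after thinning (0.0362) and without D3DMSO replicate 1 (0.00419) or 2 (0.0171).

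Pcdh19, a partner of N-cadherin whose loss in humans causes an X-linked epilepsy, was scattered in D3DMSO. It had 21.3, 79.4 and 67.5 CPM there, against 1.33, 0.315 and 1.32 CPM in D0 (log2 fold change 5.74 ± 0.44, adjusted p = 1.77e-08). D3RA was also higher than D0, at 20.5, 23.1 and 30.1 CPM (log2 fold change 4.75 ± 0.44, adjusted p = 6.57e-08). D3DMSO replicate 1 lay inside the D3RA range, while the other D3DMSO libraries lay well above it, and D3RA with D3DMSO did not pass the test (log2 fold change -0.99, adjusted p = 0.0616). Without D3DMSO replicate 1 it was called lower in D3RA (adjusted p = 0.00205). At day 6 it had 26.5, 25.4 and 27.0 CPM in D6RA, against 12.1, 10.1 and 13.8 CPM in D6DMSO (log2 fold change 1.14 ± 0.44, adjusted p = 0.0325), and the call was lost on leaving out any D6RA library or D6DMSO replicate 1 or 2. That day 6 call was also lost without the variance trend (adjusted p = 0.068) and after thinning (0.128). Pcdh19 was lower in D6DMSO than in D3DMSO (log2 fold change -2.02 ± 0.44, adjusted p = 0.00101). Single libraries moved these values: without D3DMSO replicate 1 the log2 fold change was 6.34 for D3DMSO with D0 and -2.62 for D6DMSO with D3DMSO, and without D0 replicate 2 it was 4.15 for D3RA with D0 and 5.14 for D3DMSO with D0.

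Pcdh15, the tip-link protein of hair cells of the inner ear, was listed at low levels in every group. It had 2.65, 3.32 and 2.25 CPM in D6RA, against 1.49, 0.126 and 0.131 CPM in D6DMSO (log2 fold change 3.07 ± 0.65, adjusted p = 0.000504). D6DMSO replicate 1 lay more than 10 times above the other libraries of its group and still below the D6RA range. Without it the log2 fold change was 4.18 (adjusted p = 2.07e-07). At day 3 it had 1.82, 2.28 and 1.37 CPM in D3RA and 0.829, 0.411 and 0.62 CPM in D3DMSO, which did not overlap and did not pass the test (adjusted p = 0.0539). It was called higher in 7 of 24 alternative settings, with the lowest adjusted p (0.00196) without D6DMSO replicate 1, which enters through the shared spread.

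The promoters of 5 non-clustered genes are shown, chosen by their calls between agents. Pcdh8, Pcdh9, Pcdh10 and Pcdh17 were called higher with RA at both days, though the day 3 call of Pcdh8 was lost after thinning. Pcdh19 was called between agents at day 6 and not at day 3, as was Pcdh15, whose window is not shown. The windows of Pcdh7 and Pcdh18, called at day 3 and not at day 6, are not shown either. Each sequence is the 250 bases before the annotated start in RefSeq (build GRCm38.p6), 5′ to 3′ on the gene's strand, with the letters CCAAT or their reverse complement ATTGG in capitals. The windows are chr14:79771313-79771562, minus strand, for Pcdh8, chr14:93890680-93890929, minus strand, for Pcdh9, chr3:45378148-45378397, plus strand, for Pcdh10, chr14:84443313-84443562, plus strand, for Pcdh17, and chrX:133688994-133689243, minus strand, for Pcdh19.
Pcdh8: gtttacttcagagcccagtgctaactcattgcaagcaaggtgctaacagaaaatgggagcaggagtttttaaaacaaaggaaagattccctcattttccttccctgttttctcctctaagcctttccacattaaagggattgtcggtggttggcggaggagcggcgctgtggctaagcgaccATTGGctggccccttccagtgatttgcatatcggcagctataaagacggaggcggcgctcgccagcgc
Pcdh9: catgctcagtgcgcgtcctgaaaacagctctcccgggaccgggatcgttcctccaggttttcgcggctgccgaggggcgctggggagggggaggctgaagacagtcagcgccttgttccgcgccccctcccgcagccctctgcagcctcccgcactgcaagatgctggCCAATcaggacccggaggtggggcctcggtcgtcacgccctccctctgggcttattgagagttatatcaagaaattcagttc
Pcdh10: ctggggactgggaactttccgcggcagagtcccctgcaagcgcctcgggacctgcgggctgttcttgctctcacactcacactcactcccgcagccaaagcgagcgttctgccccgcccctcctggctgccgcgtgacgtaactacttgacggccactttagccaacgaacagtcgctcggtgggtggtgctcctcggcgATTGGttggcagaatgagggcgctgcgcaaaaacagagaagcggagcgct
Pcdh17: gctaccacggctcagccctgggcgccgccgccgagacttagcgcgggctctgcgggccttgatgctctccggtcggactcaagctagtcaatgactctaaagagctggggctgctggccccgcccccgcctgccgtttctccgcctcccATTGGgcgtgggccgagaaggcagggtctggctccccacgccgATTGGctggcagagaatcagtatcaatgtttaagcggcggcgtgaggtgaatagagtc
Pcdh19: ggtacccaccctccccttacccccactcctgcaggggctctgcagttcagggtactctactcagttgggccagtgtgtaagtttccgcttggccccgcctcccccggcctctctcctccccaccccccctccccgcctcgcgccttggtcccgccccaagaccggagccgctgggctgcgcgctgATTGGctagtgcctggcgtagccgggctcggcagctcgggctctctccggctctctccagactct

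Windows were found for 8 listed members away from chromosome 18, which are Pcdh7, Pcdh8, Pcdh9, Pcdh10, Pcdh15, Pcdh17, Pcdh18 and Pcdh19. CCAAT on either strand stood in 7 of these 8, all but Pcdh7, and in 33.8% of the 32851 windows of that length in the table. In the 5 windows shown it began or ended between 46 and 101 bases before the start, and Pcdh17 held it at 54 to 58 and at 97 to 101 bases. AGGTCA on either strand, the core letters bound by retinoid receptors, stood in 0 of the 8 and in 14% of all windows, and TATAAA on either strand stood in Pcdh8 and Pcdh15 and in 12.4% of all windows. In the Pcdh8 window TATAAA stood 25 to 30 bases before the start and ATTGG at 64 to 68, without overlap, and the other 4 windows shown held no TATAAA. CG dinucleotides numbered 11 in the Pcdh8 window, 18 in Pcdh9, 22 in Pcdh10, 21 in Pcdh17 and 16 in Pcdh19, where the median over all windows was 6. All 5 windows shown thus held CCAAT and more CG than the median. Among the windows not shown, CG numbered 7 in Pcdh7, which held no CCAAT, 6 in Pcdh15, equal to that median, and 23 in Pcdh18. A match is only a run of letters in this window.

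With all counts kept, the treatment difference itself differed between the days for most members. Taken with its sign, the RA minus DMSO difference was higher at day 6 than at day 3 for 20 of the 33 members and lower for 2, where 25.4% of all genes were called higher and 23.1% lower. The 20 were Pcdha11, Pcdhgc4, 12 beta genes and 6 non-clustered genes (Pcdh1, Pcdh7, Pcdh8, Pcdh9, Pcdh10 and Pcdh19). The 2 were Pcdh17, whose difference was above 0 at both days and closer to 0 at day 6, and Pcdh11x, whose difference was near 0 at day 3 and below 0 at day 6. Among the beta genes the median of this difference was 2.0 over the first 10 genes of the cluster and 0.40 over the last 10, and the contrast draws on the same libraries as both treatment comparisons. Of the 20, Pcdhgc4, Pcdh1 and Pcdh7 were lower in D3RA than in D3DMSO and were not called at day 6. With every library thinned to the size of the smallest, neither of the 2 was called (Pcdh17 -0.01, adjusted p = 0.997, and Pcdh11x -1.52, adjusted p = 0.0976). Thinned in that way, 15 of the 33 members were called higher and 0 lower, beside 2484 and 2275 of all 14717 genes.

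**Figure D5:**
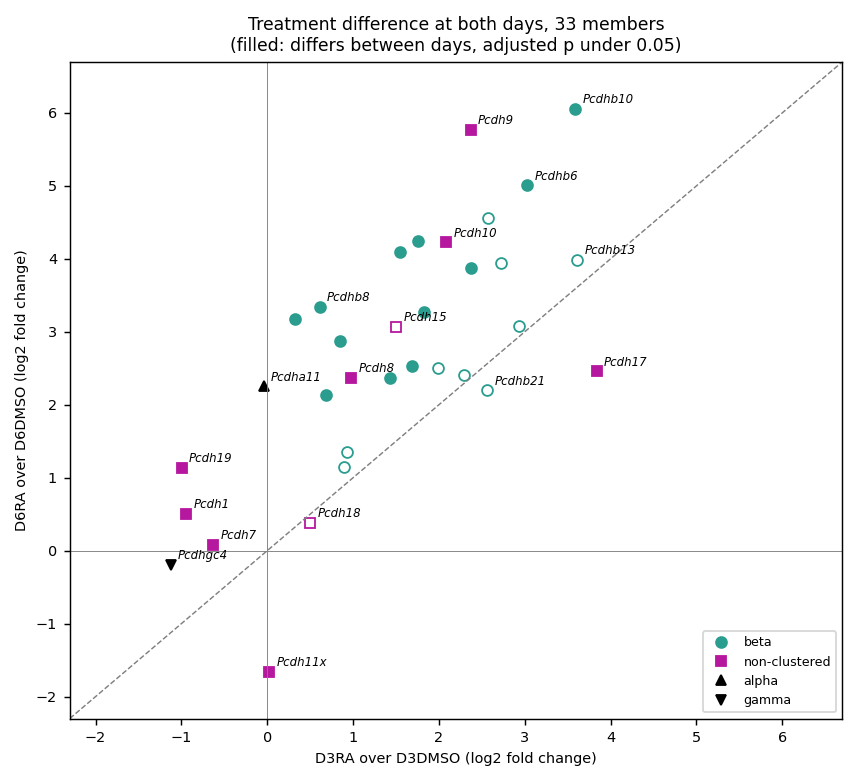
Log2 fold change of D6RA over D6DMSO (vertical axis) against that of D3RA over D3DMSO (horizontal axis) for the 33 members, by class, with filled symbols where the difference between the days was called and a dashed line of equal change. Most members lie above the line, Pcdh17 and Pcdh11x lie furthest below it, and Pcdh19, Pcdh1 and Pcdh7 lie left of 0 and above 0 on the vertical axis.

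Genes known to act on the protocadherin clusters were followed as a list of 16 (CTCF, cohesin and its loader, DNA and histone methylation and silencing factors). Of these, 4 were higher and 4 lower in D3RA with D3DMSO, and 4 higher and 6 lower in D6RA with D6DMSO, which is near the share over all genes. Only Dnmt3b and Rest changed by a log2 fold change of at least 1. Dnmt3b, the DNA methyltransferase that marks clustered protocadherin promoters in the early mouse embryo, was at 20.0 ± 3.14 CPM in D3RA, against 243 ± 56.0 CPM in D3DMSO (log2 fold change -3.58 ± 0.14, adjusted p = 1.48e-12), and at 9.44 ± 0.365 CPM in D6RA, against 47.4 ± 3.54 CPM in D6DMSO (log2 fold change -2.32 ± 0.14, adjusted p = 1.46e-10). Rest, the silencer of neuronal genes, was at 91.3 ± 12.8 CPM in D3RA, against 212 ± 12.5 CPM in D3DMSO (log2 fold change -1.22 ± 0.08, adjusted p = 2.09e-09), and at 72.6 ± 1.11 CPM in D6RA, against 201 ± 10.7 CPM in D6DMSO (log2 fold change -1.47 ± 0.08, adjusted p = 1.23e-10). Their part in the protocadherin levels was not tested.

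Of 16 partners of protocadherins in the cell (WAVE complex, kinases and others), 6 were higher and 3 lower in D3RA with D3DMSO, and 10 higher and 3 lower in D6RA with D6DMSO. Over the whole table, 30.7% of genes were higher and 31.4% lower at day 3, and 32.6% higher and 33.1% lower at day 6, so the day 3 count of higher partners was near the table's share. Marcks, an actin-linked membrane protein, was at 847 ± 11.4 CPM in D6RA, against 166 ± 27.8 CPM in D6DMSO (log2 fold change 2.36 ± 0.10, adjusted p = 1.86e-12). Cyfip2, a WAVE subunit, was at 275 ± 1.96 CPM in D6RA, against 64.5 ± 5.95 CPM in D6DMSO (log2 fold change 2.10 ± 0.14, adjusted p = 5.18e-10). At day 3 its mean was lower with RA, at 63.7 ± 7.87 CPM in D3RA against 122 ± 27.3 CPM in D3DMSO. Wasf1, a WAVE protein, also turned with the day. It was lower in D3RA than in D3DMSO (log2 fold change -1.12 ± 0.23, adjusted p = 0.000498) and higher in D6RA than in D6DMSO (log2 fold change 1.04 ± 0.23, adjusted p = 0.000837). Ptk2b, a kinase of the focal adhesion kinase family, was lower with RA at day 6, at 0.189 ± 0.0567 CPM in D6RA against 1.62 ± 0.351 CPM in D6DMSO (log2 fold change -3.01 ± 0.46, adjusted p = 1.89e-05).

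Other cadherin superfamily genes were measured for 23 of 25 listed. Of these, 12 were higher and 7 lower in D3RA with D3DMSO, and 16 higher and 3 lower in D6RA with D6DMSO. Beside shares over all genes of 30.7% higher and 31.4% lower at day 3 and 32.6% and 33.1% at day 6, the day 3 count of lower genes was near the table's share. Fat4, a giant cadherin of planar polarity, was at 1183 ± 77.0 CPM in D6RA, against 18.0 ± 1.30 CPM in D6DMSO (log2 fold change 6.04 ± 0.20, adjusted p = 1.11e-13). N-cadherin (Cdh2) was at 362 ± 3.61 CPM in D6RA, against 102 ± 6.35 CPM in D6DMSO (log2 fold change 1.82 ± 0.14, adjusted p = 7.17e-09). E-cadherin (Cdh1) was at 0.676 ± 0.16 CPM in D6RA, against 21.5 ± 3.01 CPM in D6DMSO (log2 fold change -4.97 ± 0.24, adjusted p = 1.58e-11), and P-cadherin (Cdh3) was at 0.243 ± 0.0229 CPM in D6RA, against 35.3 ± 1.02 CPM in D6DMSO (log2 fold change -7.09 ± 0.31, adjusted p = 3.39e-12). The epithelial E- and P-cadherins thus were under 1 CPM in D6RA.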

How the data were processed

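RNA of 15 P19 libraries was analysed, with groups read from the sample titles, and the 18 chromatin immunoprecipitation samples were not used. Values in the deposited table are log2 and cover 14717 Ensembl IDs. A symbol was found for 14228. Libraries came from total RNA depleted of ribosomal RNA with a stranded kit, per the labels. Tools named are STAR 2.6.0c, Trimmomatic 0.32, featureCounts, edgeR and limma with mm9, per the submitters' processing notes. The counting settings, strand included, are not given in the sources used here.

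After undoing the log2 and taking off a constant of 0.5, 100% came out as whole counts (tolerance 0.05). These counts, divided by library sizes on the deposited scale (2.19 to 31.9 M), give CPM. Total counts were 3.55 to 49.6 M per library, so low genes are least precise in D3RA, and intervals cover counting error only. Marker, regulator and partner lists, like the members, were chosen with earlier results of these data known.

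Genes were compared with limma 3.58.1 (R 4.3.3) with a variance trend on the deposited log2 values, 1 coefficient per group and 10 residual degrees of freedom. The fit gives libraries of unequal depth equal weight, so voom weights were tried too. Both were tested on simulated data for D3RA with D3DMSO, where the equal-weight fit made more false calls than its adjusted threshold allows and voom did not. Named with every library's value were the non-clustered members, Pcdha11, Pcdhgc4, the 3 beta genes of highest mean, and the 2 clustered genes of highest and the 2 of lowest fold change called between agents at each day. Pcdhb4 was named after its values were seen. Genes of the regulator, partner and other cadherin lists were named from those called whose log2 fold change was 1 or more in size. Deviations of same-numbered samples from their group means had correlations of -0.148 to 0.212 over all genes, with 2 of 30 over 0.1. The highest was that of D3DMSO with D3RA for replicate 1. Differently numbered samples were not compared, so this check cannot tell whether the numbers pair samples. Alternatives were quantile normalization, median-of-ratios scaling, an added count of 2, filters of 1 and 5 CPM in 3 libraries, no trend and voom. Others were the compared groups alone, a replicate block, thinning to the smallest scaled library size (2189364) and leaving out each library.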

Additional observations from a re-analysis of the deposited data

Results flagged for a closer look

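The RA minus DMSO difference differed between day 6 and day 3, by the interaction term of the limma fit with Benjamini-Hochberg adjustment over all genes, for 14 of the genes named. Values are that difference at day 6 less that at day 3, in log2. Taken with its sign, it was higher at day 6 for the non-clustered genes Pcdh1 (1.45), Pcdh7 (0.71), Pcdh8 (1.40), Pcdh9 (3.40), Pcdh10 (2.14) and Pcdh19 (2.13). It was higher for the clustered entries Pcdha11 (2.30), Pcdhgc4 (0.93), Pcdhb6 (1.98), Pcdhb8 (2.73), Pcdhb10 (2.47) and Pcdhb11 (1.49). It was lower at day 6 for Pcdh17 (-1.38), which was higher with RA at both days, and for Pcdh11x (-1.68), which was lower with RA at day 6 and not called at day 3. Without D3DMSO replicate 1 the Pcdh19 value was 2.73. The Pcdh7 difference was no longer called in 7 of the alternatives, which were no trend, thinning, and leaving out D3RA replicate 2, D3DMSO replicate 2, D6RA replicate 3 or D6DMSO replicate 1 or 3. Libraries of day 6 were deeper than those of day 3, and thinned to the smallest size the Pcdh17 value was -0.01 and those of Pcdh9 and Pcdhb8 were 1.98 and 1.74, short of the threshold (adjusted p = 0.0623 and 0.0709).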

How the results depend on the processing

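The counts of members called kept their size within 1.5 times under every alternative for D3RA with D0, D3RA with D3DMSO and D6RA with D3RA. For D3DMSO with D0, 13 were called higher with the compared groups alone and 14 with voom weights, and 1 to 2 were called lower on leaving out a library (2 without D6DMSO replicate 1). For D6RA with D6DMSO, 2 were called lower under quantile normalization, voom weights, the compared groups alone and the replicate block. For D6DMSO with D3DMSO, 9 to 14 were called higher and 1 to 4 lower on leaving out a library (2 without D3DMSO replicate 2 and 1 without replicate 3). After thinning, members whose RA minus DMSO difference was called higher at day 6 than at day 3 numbered 15 (20 without thinning). Those called lower numbered 0. Under voom weights the counts higher and lower were 24 and 4 for D3RA with D3DMSO and 30 and 2 for D6RA with D6DMSO. Of the members called in the equal-weight fit, 27 of 28 at day 3 and 29 of 29 at day 6 were also called under voom weights (all but Pcdhb14), against 15 of 21 for D3DMSO with D0.

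Whether the replicate numbers pair the samples could not be told from the correlations of same-numbered samples. With the number as a block, 26 members were higher and 4 lower in D3RA with D3DMSO, and 30 higher and 2 lower in D6RA with D6DMSO.

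Some alternatives could change little: the filter of 1 CPM in 3 libraries removed none of the 14717 genes. Leaving out a library of a group not compared alters only the shared spread, not the fold change. With these included, of 2972 values of named genes under alternatives, 2848 kept their direction and side of the threshold. Of the rest, 79 fell short of it, 32 newly passed it and 13 changed sign, none of these 13 past the threshold. They were Pcdh7 in D6RA with D6DMSO under quantile normalization (-0.03); Pcdh11x in D3RA with D3DMSO under voom weights (-0.01), after thinning (-0.10) and on leaving out a library (-0.13 to 0.13); Pcdha11 in D3RA with D3DMSO after thinning (0.02) and on leaving out a library (-0.20 to 0.06); Pcdhb10 in D3DMSO with D0 after thinning (-0.00); and, for the difference between the days, Pcdh18 (-0.35 to 0.15 on leaving out a library, above 0 without D3DMSO replicate 1) and Pcdhb13 (-0.36 to 0.88, below 0 without D3DMSO replicate 3). The cause was not tested. Depth limits Pcdhb9, Pcdhb10, Pcdhb12, Pcdhb13 and Pcdhb15 most, with few counts in D0.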
